A study of Mus musculus with 6 samples.

Results

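The EGF receptor family and its ligands were followed in the postnatal mandibular condyle as 10 genes chosen by name, out of the 22609 genes of the count table. They were the receptor genes Egfr, Erbb2 and Erbb3, the ligand genes Tgfa, Hbegf, Areg, Ereg, Btc and Nrg1, and the inhibitor gene Errfi1. Of the 10 genes, 7 had at least 10 counts in at least 2 libraries and were tested, and Erbb3, Areg and Ereg did not pass this filter. RNA was sequenced from the articular zone, the outer layer of the condyle, and from the mature zone, the chondrocyte layer beneath it, in CD-1 mice at postnatal day 7. No sample carried a transgene or received a treatment according to the labels. The zones were cut out by laser capture on cell morphology, and each sample was a pool of sections. Values existed for 3 articular zone libraries (replicates 2, 3 and 4) and 2 mature zone libraries (replicates 2 and 3), and these are listed in that order throughout. A further mature zone sample, which mapped poorly according to its label, was not analysed here.

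EGF receptor and its relatives are receptor tyrosine kinases that pair on ligand binding and signal through the Ras-ERK, PI3K-AKT and STAT routes. The ligands are made as membrane-anchored precursors and are released by cell surface proteases. In mouse joints, this pathway is known for its part in keeping the superficial cartilage layer and in the turnover of growth plate cartilage.

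The libraries held 15449883 to 18884685 counts in the articular zone, against 15555620 to 16302047 in the mature zone. Levels are given in CPM, counts scaled to a common library size with TMM factors, and a count of 0 allows up to 3 counts, or 0.151 to 0.214 CPM, by counting error alone. The list of chondrocyte markers separated the zones. All 7 chondrocyte markers, Acan and Col2a1 among them, were lower in every articular zone library than in both mature zone libraries, where 17.6% of all tested genes were. Their summed level was 1604 to 2829 CPM in the articular zone, against 21555 to 36097 CPM in the mature zone. In edgeR, 6 of the 7 were called lower, where 1.85% of all tested genes were, and Col2a1 was not (adjusted p 0.0896). Matn1, with 0 counts in the articular zone, passed the count filter only through the mature zone. Prg4, which codes for lubricin of the joint surface, had 32, 11 and 57 counts in the articular zone, against 11 and 0 in the mature zone, so that this defining gene of the superficial layer was sparse in both. In these bulk samples, fewer cells of a type and less RNA per cell cannot be told apart.

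Both detected receptor genes lie on chromosome 11, and their promoters are shown because Egfr and Erbb2 were the receptor genes that stood apart between the zones. The sequences come from RefSeq on GRCm38.p6 and run 5′ to 3′ on the plus strand from 250 bases before to 50 bases after the annotated start, at chr11:16751953-16752252 for Egfr and chr11:98412234-98412533 for Erbb2. Capitals mark GGGCGG, the core of the GC box, read on either strand.
Egfr: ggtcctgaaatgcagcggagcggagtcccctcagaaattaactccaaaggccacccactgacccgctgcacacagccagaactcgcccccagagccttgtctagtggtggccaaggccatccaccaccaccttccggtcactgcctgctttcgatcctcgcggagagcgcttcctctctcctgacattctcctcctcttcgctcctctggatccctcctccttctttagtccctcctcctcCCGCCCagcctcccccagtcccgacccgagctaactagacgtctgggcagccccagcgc
Erbb2: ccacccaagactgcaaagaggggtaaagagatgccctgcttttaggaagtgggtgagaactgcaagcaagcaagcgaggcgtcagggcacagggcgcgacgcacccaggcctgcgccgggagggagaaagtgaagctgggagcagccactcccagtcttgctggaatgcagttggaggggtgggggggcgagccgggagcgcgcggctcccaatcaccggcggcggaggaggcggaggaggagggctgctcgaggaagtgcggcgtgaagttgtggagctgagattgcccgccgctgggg
The Egfr window held 1 such match, on the minus strand, starting at base 242 of the window, and the Erbb2 window held 0. Neither held TATAAA on either strand. Of 32851 mouse promoters of the same length, 35.7% held GGGCGG and 13.6% held TATAAA. The GC content was 62.3% for Egfr and 66.0% for Erbb2, and the median over all promoters was 52.7%. Of the 10 genes, 6 had an entry in this promoter table.

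Egfr was the only one of the 10 genes whose level passed the test in edgeR, and it was about 7 times as high in the articular zone. Egfr codes for the receptor for TGFα, HB-EGF, amphiregulin, epiregulin and betacellulin (ENSMUSG00000020122.16, GRCm38 chromosome 11, 16752203 to 16918158, plus strand). It had 1856, 1508 and 2600 counts in the articular zone, against 194 and 265 counts in the mature zone. The level was 111 ± 18.1 CPM in the articular zone (SD, n = 3), against 15.8 ± 4.35 CPM in the mature zone (SD, n = 2). Every articular zone library was far above both mature zone libraries, and neither zone's spread approached the distance between them. The log2 fold change of articular over mature zone was 2.81 (SE 0.33), a 7.02-fold higher level, with an adjusted p of 0.0101 in edgeR's quasi-likelihood test over 13119 genes. In that fit, 3.00% of all tested genes were called at an adjusted p under 0.05. Of all tested genes, 1.14% were called higher and 1.85% lower in the articular zone. Of the 10 family genes, 1 was called higher and 0 lower. Of the 7 tested, 3 were at an unadjusted p under 0.05 in edgeR, where 20.1% of all tested genes were. Of these 3, Nrg1 passed the count filter only through the articular zone. Without articular zone replicate 4, the adjusted p of Egfr in edgeR was 0.0831 at a log2 fold change of 2.68, and without any other single library it lay between 0.0081 and 0.0468.

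Erbb2 codes for a receptor with no known soluble ligand of its own that serves as the partner of the others (ENSMUSG00000062312.5, chromosome 11, 98412470 to 98437716, plus strand). It had 375, 281 and 251 counts in the articular zone, against 49 and 89 counts in the mature zone. The level was 17.3 ± 4.52 CPM in the articular zone (SD, n = 3), against 4.78 ± 2.21 CPM in the mature zone (SD, n = 2). The zones did not overlap, but the difference did not pass the test, with a log2 fold change of 1.86 (SE 0.70) and an adjusted p of 0.190 in edgeR. DESeq2 placed it just past the threshold, with an adjusted p of 0.0480. Erbb3, which codes for a neuregulin receptor with a weak kinase (ENSMUSG00000018166.8, chromosome 10, 128567523 to 128589652, minus strand), had 0 counts in all 5 libraries.

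The balance between the receptor genes differed by scale. On the FPKM scale, which divides by gene length, Egfr stood at 8.01, 5.90 and 8.29 in the articular zone, against 1.76 and 2.46 in the mature zone. Erbb2 stood at 2.31, 1.87 and 1.45 FPKM in the articular zone, against 0.330 and 0.554 FPKM in the mature zone. Egfr was above Erbb2 in every library, and the ratio of Egfr to Erbb2 FPKM was 3.47, 3.15 and 5.73 in the articular zone, against 5.34 and 4.44 in the mature zone, so that the ratios overlapped. In counts, the ratio of Egfr to Erbb2 was 4.95, 5.37 and 10.4 in the articular zone, against 3.96 and 2.98 in the mature zone. The count ratios did not overlap and were higher in every articular zone library. These ratios were not tested.

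**Figure D1:**
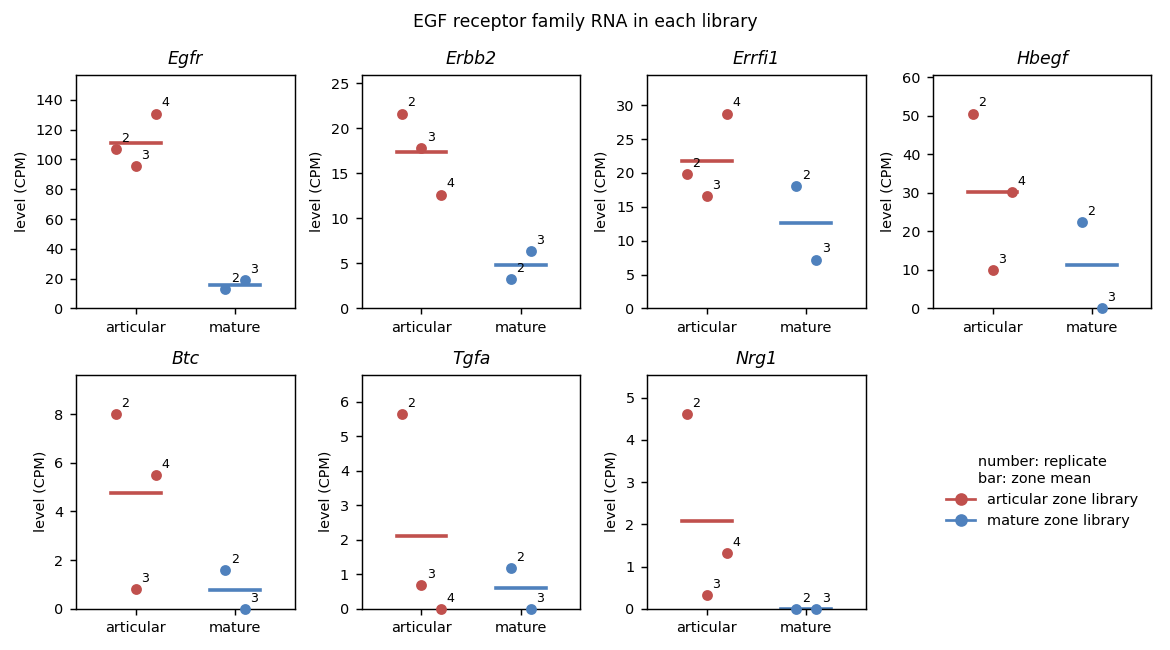
Level of each family gene in CPM (vertical axes, linear, each from 0) in every library, with the articular zone left and the mature zone right. Points are libraries labelled by replicate number and the horizontal bars are zone means. Egfr and Erbb2 show zones that do not overlap, at 111 against 15.8 CPM and 17.3 against 4.78 CPM on average, whereas the ligand genes scatter widely within a zone.

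The ligand genes varied more among libraries of a zone than the receptor genes did, and edgeR called 0 of the 4 tested, with 1 at an unadjusted p under 0.05 (Nrg1, which DESeq2 called). Hbegf, which codes for heparin-binding EGF-like growth factor (ENSMUSG00000024486.6, chromosome 18, 36504927 to 36515805, minus strand), was the most abundant ligand gene by FPKM in every library except mature zone replicate 3, where all 6 were listed at 0.1. It had 878, 157 and 600 counts in the articular zone, against 342 and 2 counts in the mature zone. In CPM, these were 50.6, 9.93 and 30.2 in the articular zone, against 22.5 and 0.143 in the mature zone. Articular zone replicate 3 was below mature zone replicate 2, so the zones overlapped, and mature zone replicate 3 was nearly empty. The log2 fold change was 1.42 (SE 1.40), with an adjusted p of 0.653 in edgeR. That value turned on the mature zone libraries. Without mature zone replicate 3, the log2 fold change of Hbegf was 0.43 with an adjusted p of 0.836 in edgeR. Without mature zone replicate 2, its adjusted p in edgeR was 0.0180, but the mature zone was then a single library with 2 counts, assumed to vary like the articular zone libraries. The level over the articular zone was 216 times that of this library, with an exact 95% interval of 59.8 to 1787 that covers counting error only.

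Btc codes for betacellulin (ENSMUSG00000082361.6, chromosome 5, 91357261 to 91402994, minus strand). It had 139, 13 and 109 counts in the articular zone, against 24 and 0 counts in the mature zone. The zones overlapped, since articular zone replicate 3 was again the lowest of its zone and was below mature zone replicate 2. The log2 fold change was 2.58 (SE 2.02), with an adjusted p of 0.544 in edgeR.

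Tgfa codes for TGFα (ENSMUSG00000029999.14, chromosome 6, 86195223 to 86275719, plus strand). It had 98, 11 and 0 counts in the articular zone, against 18 and 0 counts in the mature zone, so each zone held a library with none. The log2 fold change was 1.82 (SE 2.63), with an adjusted p of 0.781 in edgeR, and without articular zone replicate 2 it was -0.77. Its FPKM was 0.393 in articular zone replicate 2, and the other 4 libraries were listed at 0.1, the lowest value of that table.

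Nrg1 codes for neuregulin 1, a ligand of the ERBB3 and ERBB4 receptors (ENSMUSG00000062991.7, chromosome 8, 31814551 to 32884029, minus strand). It had 80, 5 and 26 counts in the articular zone, against 0 and 0 counts in the mature zone. Every articular zone library had some, although 5 counts is little, and Nrg1 passed the count filter only through the articular zone. Its level over the articular zone was at least 20.4-fold higher than the limit set by 3 counts over the summed mature zone libraries. The adjusted p was 0.195 in edgeR and 0.0491 in DESeq2.

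Areg, which codes for amphiregulin (ENSMUSG00000029378.5, chromosome 5, 91139599 to 91148432, plus strand), had 0 counts in all 5 libraries. Ereg, which codes for epiregulin (ENSMUSG00000029377.5, chromosome 5, 91074622 to 91093646, plus strand), had 0 counts in the 3 articular zone libraries and 1 count in mature zone replicate 2 alone. Both were at or under the counting limit in each zone, so no fold is given. Exons of antisense genes overlap 4.66% of the exonic length of Nrg1, 3.42% of that of Ereg, 1.82% of that of Tgfa and 0.173% of that of Erbb2, and reads of such partners cannot be told apart there because the strand setting of the counting was not given in the sources used here.

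Summed over the 6 ligand genes, the libraries held 1195, 186 and 735 ligand counts in the articular zone, against 385 and 2 in the mature zone. In CPM the sums were 68.9, 11.8 and 37.0 in the articular zone, against 25.3 and 0.143 in the mature zone. Articular zone replicate 3 was below mature zone replicate 2, and replicate 3 was the lowest library of each zone for the sum, for Hbegf and for Btc. Replicate 3 also had the lowest sum of each zone for the myeloid and for the endothelial markers. The 7 myeloid markers summed to 201, 14.0 and 82.5 CPM in the articular zone, against 40.0 and 25.5 CPM in the mature zone. All 7 had a count in some articular zone library, against 5 in the mature zone, and edgeR called 0 of the 6 tested. Itgam and Emr1, at 0 in both mature zone libraries, were also at 0 in articular zone replicate 3. Itgam and Emr1 passed the count filter only through the articular zone. All 6 tested myeloid markers had positive log2 fold changes, with a median of 2.45, where 53.5% of all tested genes were positive. In 1 of them, Cd68 (500, 65 and 216 counts in the articular zone, against 6 and 42), every articular zone library was above both mature zone libraries. Of all tested genes, 21.1% had this order. Ptprc, untested and close to the counting limit, averaged 0.254 CPM in the articular zone, against 0.321 CPM in the mature zone. In the mature zone, the lower myeloid sum of replicate 3 came from Csf1r alone (353 and 0 counts in replicates 2 and 3), and the other 4 markers with a count were higher in replicate 3. The 6 endothelial markers summed to 314, 69.6 and 317 CPM in the articular zone, against 44.2 and 23.5 CPM in the mature zone. Of the 5 tested, edgeR called 2, Emcn and Cd34, higher in the articular zone, where 1.14% of all tested genes were called higher. Emcn, at 0 in both mature zone libraries, passed the count filter only through the articular zone. Pecam1, Kdr and the untested Tie1 overlapped between the zones. All 6 had a count in the articular zone, against 4 in the mature zone. The 6 skeletal muscle markers summed to 933, 28.7 and 13.2 CPM in the articular zone, against 807 and 59.6 CPM in the mature zone. Replicate 2 was the highest library of each zone for this sum, as for the ligand sum. The part of myeloid, endothelial and muscle cells in the ligand levels was not tested.

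The 7 Schwann cell markers summed to 34.0, 10.2 and 11.5 CPM in the articular zone, against 1.51 and 27.5 CPM in the mature zone, with all 7 having a count in the articular zone, against 4 in the mature zone. Their range spanned both zones. The defining Sox10 had 6, 0 and 0 counts in the articular zone, against 0 in both mature zone libraries. Of the 7 epithelial markers, which were looked at because epithelia are rich in Egfr and its ligands, 5 (Epcam, Cdh1, Krt14, Krt8 and Krt18) were at 0 in all 5 libraries. The epithelial sum was 0.0632 to 4.02 CPM in the articular zone, against 0 to 0.723 CPM in the mature zone.

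Errfi1 codes for MIG-6, which binds the kinase domain of EGFR and blocks it, and whose loss in mice is known to damage joints (ENSMUSG00000028967.10, chromosome 4, 150853919 to 150868892, plus strand). It had 343, 262 and 572 counts in the articular zone, against 275 and 101 counts in the mature zone. In CPM, these were 19.8, 16.6 and 28.8 in the articular zone, against 18.1 and 7.20 in the mature zone. Mature zone replicate 2 lay above articular zone replicate 3, and the zones overlapped. The log2 fold change was 0.78 (SE 0.60), with an adjusted p of 0.537 in edgeR.

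**Figure D2:**
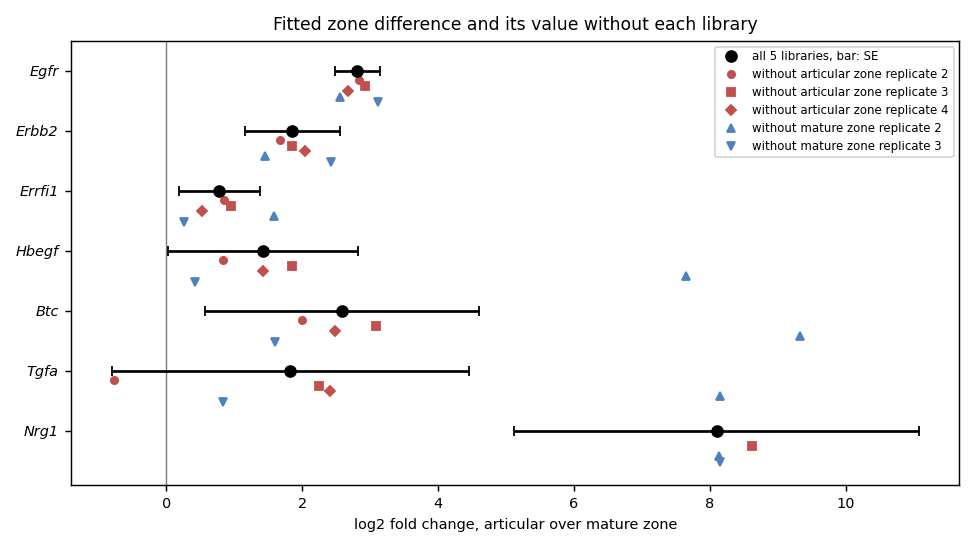
Fitted log2 fold change of articular over mature zone (horizontal axis) for the 7 tested family genes, from edgeR, as black points with bars of 1 standard error, and coloured points for the value without each single library. The points of Egfr stay close to 2.81, whereas those of Hbegf, Btc and Tgfa move far to the right without mature zone replicate 2, when the mature zone is left with 2, 0 and 0 counts of them. Fitted values against 0 counts in the mature zone, as for Nrg1, are no measured size.

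Across the 7 tested genes, every articular zone library was above both mature zone libraries for 3 (Egfr, Erbb2 and Nrg1), where 21.1% of all tested genes had this order. Of these 3, Nrg1 passed the count filter only through the articular zone, so its place among the tested genes already required higher counts there. The gene that passed the test in DESeq2 as well as in edgeR was Egfr, and DESeq2 also called Erbb2 and Nrg1 higher, in a fit that called 7.90% of all tested genes higher. By FPKM in the articular zone, Egfr (7.40 ± 1.31, SD, n = 3) and Hbegf (9.36, 1.94 and 6.05) overlapped at the top. Errfi1 (2.25, 2.02 and 3.51) and Erbb2 overlapped next, and Btc (0.917, 0.110 and 0.735), Nrg1 (1.13, 0.1 and 0.301) and Tgfa formed an overlapping group of low levels. In the mature zone Egfr was at 2.11 ± 0.494 FPKM (SD, n = 2), and Hbegf was at 3.95 in replicate 2 but listed at 0.1 in replicate 3.

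The zone difference of Egfr was smaller in FPKM than in counts. The mean FPKM of Egfr was 3.50-fold higher in the articular zone, and its mean CPM was 7.02-fold higher. With limma on log2(FPKM + 1), the log2 fold change was 1.43 with an adjusted p of 0.0422. For Erbb2 the mean FPKM was 4.24-fold and the mean CPM 3.63-fold higher, and for Errfi1 the values were 2.01-fold and 1.72-fold, so these genes did not show the shift. The comparison that follows was chosen after these values were seen and carries no test.

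The number of counts per FPKM unit of a gene reflects the library size and the length by which the FPKM was divided. It also reflects which reads each measure assigned to the gene. Counts and FPKM did not always rest on the same reads, since Fosl1, an ERK-induced gene, had 0 counts but an FPKM of 0.581 in mature zone replicate 2. For Egfr it was 232, 256 and 314 in the articular zone, against 110 and 108 in the mature zone. For Erbb2 it was 163, 150 and 173 in the articular zone, against 148 and 161 in the mature zone. Egfr alone of the pair separated the zones. Relative to the median gene of each library, the counts per FPKM of Egfr were 2.35 times as high in the articular zone, against 1.01 times for Erbb2 and 0.968 times for Errfi1. Over 7113 genes with an FPKM of at least 1 in all 5 libraries, this ratio had a median of 1.00 and a middle 95% of 0.905 to 1.12. Besides Egfr, 1 gene of the 7113 was as high, Atxn3 at 2.47.

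**Figure D3:**
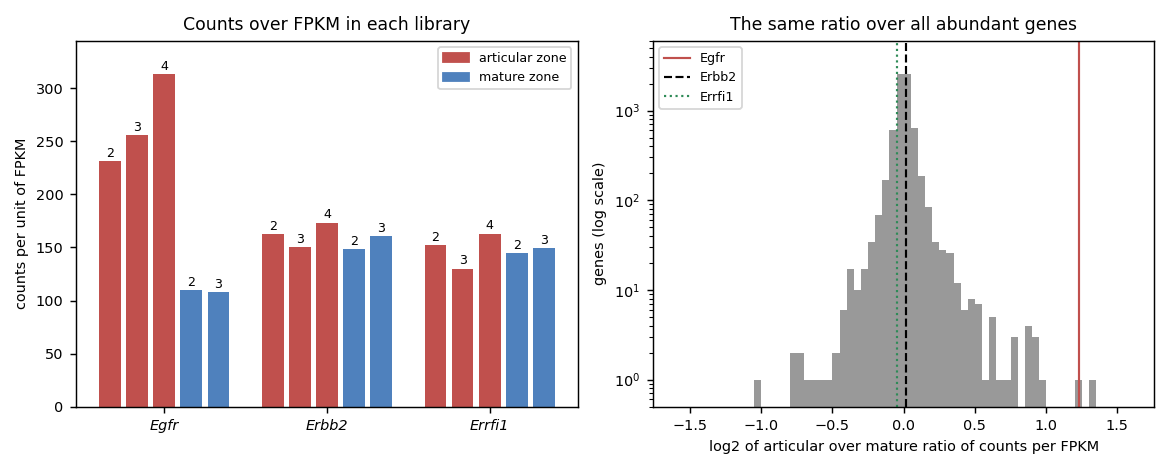
Left, counts per FPKM unit of Egfr, Erbb2 and Errfi1 in each library, with the articular zone left of the mature zone. Right, the number of genes (vertical axis, log scale) by the log2 of the articular over mature ratio of counts per FPKM (horizontal axis) for 7113 genes, where Egfr, with a ratio of 2.35, lies far from the median of 1.00, and Erbb2 and Errfi1 lie near it.

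The GENCODE vM21 annotation of Egfr holds 5 transcripts that differ widely in length. The longest, Egfr-201, has 10208 bases and codes for 1210 residues, and Egfr-202 has 2943 bases and codes for 655 residues. The longer form is the full receptor, and shortened Egfr transcripts of mammals are known to code for soluble forms without the kinase. With the counts per FPKM scaled on 418 genes that have 1 annotated transcript, the length implied for Egfr was 6305, 7809 and 7911 bases in the articular zone, against 3316 and 2909 bases in the mature zone. The zones did not overlap in implied length. For Erbb2 it was 4460 ± 108 bases in the articular zone (SD, n = 3), against 4404 ± 93.8 bases in the mature zone (SD, n = 2). For Errfi1 it was 4076 ± 94.9 bases in the articular zone (SD, n = 3), against 4195 ± 221 bases in the mature zone (SD, n = 2). Both values for Errfi1 exceeded its longest annotated transcript, of 3043 bases. The scale is loose for any one gene, because implied over annotated length ran from 0.321 to 4.45 in the middle 95% of the 418 genes, but their articular over mature ratio ran only from 0.893 to 1.09. An implied length is no measured transcript length, because counts and FPKM can also differ in the reads assigned to a gene. The files hold values per gene, and which Egfr transcripts the reads came from was not tested. Neither labels nor methods name the program that computed FPKM.

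The genes whose profile over the 5 libraries was most like that of Egfr were Ptprk, Slc12a9, Rnf2, Chrnb1 and Gm10220. Likeness was the root mean square difference of mean-centred log2 CPM from Egfr, which was 0.171, 0.171, 0.173, 0.183 and 0.198 for these 5 out of 13118 genes compared. Rnf2, which codes for a Polycomb ubiquitin ligase, had 796, 519 and 1141 counts in the articular zone, against 91 and 127 counts in the mature zone. Its counts were high in all articular zone libraries and low in both mature zone libraries, as for Egfr. Chrnb1, which codes for a subunit of the muscle acetylcholine receptor, had 13, 10 and 17 counts in the articular zone, against 0 in both mature zone libraries. Slc12a9 had 25, 18 and 46 counts in the articular zone, against 1 and 2. Both passed the count filter only through the articular zone, and the prior count of 2 largely set their mature zone values. Their closeness to Egfr is thus no measured match. The fitted log2 fold change was 6.63 (SE 2.83) for Chrnb1 and 3.88 (SE 2.00) for Slc12a9, beside 2.81 (SE 0.33) for Egfr. Among the family genes, Erbb2 was nearest to Egfr, at rank 173 with a difference of 0.603, and Errfi1 stood at rank 1965. Hbegf and Tgfa were far from it, at ranks 11999 and 12138.

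Other genes of the pathway were grouped into 6 role lists of 97 genes, of which 87 were tested. edgeR called 2 of the 87 (2.30%) higher in the articular zone, where 1.14% of all tested genes were called higher, and 0 lower, where the share over all genes was 1.85%. DESeq2 called 6 higher and 4 lower, where its shares over all genes were 7.90% and 5.84%. At an unadjusted p under 0.05, edgeR had 21 of the 87, beside 20.1% of all tested genes. The median log2 fold change of the 87 was 0.20, beside 0.07 over all tested genes. In 18 of the 87 every articular zone library was above both mature zone libraries and in 15 every one was below, where 21.1% and 17.6% of all tested genes did so. These shares lay near those over all tested genes.

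The first called gene was Gab2, which codes for a docking adaptor between activated receptors and the SHP2 and PI3K routes. It had 267, 352 and 255 counts in the articular zone, against 6 and 6 counts in the mature zone. The articular zone libraries were all far above the mature zone, where Gab2 was close to the counting limit. Gab2 passed the count filter only through the articular zone. Its place among the 87 tested genes thus rested on the zone where it was high. The level was 16.8 ± 4.87 CPM in the articular zone (SD, n = 3), against 0.411 ± 0.0237 CPM in the mature zone (SD, n = 2), with a log2 fold change of 5.33 (SE 0.89) and an adjusted p of 0.0222 in edgeR. The other was Ptprk, also the gene nearest to Egfr in profile, which codes for a receptor tyrosine phosphatase known to remove phosphate from EGFR in human cells. Ptprk had 485, 291 and 600 counts in the articular zone, against 41 and 49 counts in the mature zone. Its level was 25.5 ± 6.26 CPM in the articular zone (SD, n = 3), against 3.09 ± 0.566 CPM in the mature zone (SD, n = 2), with a log2 fold change of 3.04 (SE 0.61) and an adjusted p of 0.0416 in edgeR. The zones were apart for both genes, but neither call held in edgeR without any 1 articular zone library (adjusted p of 0.0966 to 0.119 for Gab2 and 0.102 to 0.208 for Ptprk) or without mature zone replicate 3 (0.0533 for Gab2 and 0.0709 for Ptprk). With the replicate number as a block, the adjusted p in edgeR was 0.0832 for Gab2 and 0.166 for Ptprk.

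The remaining family genes were sparse. Erbb4, the other neuregulin receptor gene, and Nrg3 were at 0 in all 5 libraries. Nrg4, which codes for a neuregulin that binds ERBB4, had 39, 0 and 23 counts in the articular zone, against 0 and 13 counts in the mature zone, and the zones overlapped. Egf, the gene of the founding ligand, had 6, 59 and 69 counts in the articular zone, against 9 and 14 counts in the mature zone. Its zones overlapped too, with a log2 fold change of 1.65 (SE 1.73) and an adjusted p of 0.673 in edgeR. Epgn, which codes for epigen, an EGFR ligand, had 0, 33 and 4 counts in the articular zone, against 0 in both mature zone libraries and did not pass the filter. Of the 6 genes in this list 2 were tested and edgeR called 0.

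Of the 11 genes for ligand shedding, all were tested and edgeR called 0, with 1 at an unadjusted p under 0.05 and a median log2 fold change of 0.40. Cd9, which codes for a tetraspanin that binds the HB-EGF precursor, stood at 690 ± 42.0 CPM in the articular zone (SD, n = 3), against 742 ± 48.6 CPM in the mature zone (SD, n = 2). Timp3, an inhibitor of the shedding protease ADAM17, stood at 491, 181 and 408 CPM in the articular zone, against 283 and 324 CPM in the mature zone. These abundant genes overlapped between the zones, and their adjusted p in edgeR was 0.802 for Cd9 and 0.793 for Timp3.

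In the Ras-ERK list, Gab2 was the 1 gene of 19 that was called, and the median log2 fold change was -0.03. In 7 of the 19 every articular zone library was below both mature zone libraries, where 17.6% of all tested genes did so. In the list of PI3K, PLC and STAT genes, edgeR called 0 of 20, with 6 at an unadjusted p under 0.05 (20.1% over all tested genes) and a median log2 fold change of 0.01. Akt1, a kinase downstream of PI3K, averaged 134 CPM in the articular zone, against 125 CPM in the mature zone, with a log2 fold change of 0.10 and an adjusted p of 0.901 in edgeR. Stat3, a transcription factor that EGFR can activate, averaged 98.5 CPM in the articular zone, against 166 CPM in the mature zone, with a log2 fold change of -0.75 and an adjusted p of 0.157 in edgeR.

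In the list of genes that attenuate the receptor, which holds ubiquitin ligases, phosphatases and endocytic adaptors, Ptprk was the 1 gene called of 17 tested, and the median log2 fold change was 0.30. Among genes known to be induced by ERK, edgeR called 0 of 18 tested, with 3 at an unadjusted p under 0.05 (20.1% over all tested genes). Their median log2 fold change was 0.61, beside 0.07 over all tested genes. In 5 of the 18 every articular zone library was above both mature zone libraries, where 21.1% of all tested genes had this order. In 1 every one was below, where 17.6% of all tested genes did so. Their summed level, much of it from Ccnd1 and Myc, was 404 to 573 CPM in the articular zone, against 296 to 512 CPM in the mature zone, so the sums overlapped. Myc, which codes for a growth-promoting transcription factor, averaged 91.5 CPM in the articular zone, against 80.3 CPM in the mature zone, with an adjusted p of 0.873 in edgeR. Ccnd1, which codes for cyclin D1 of the cell cycle, averaged 222 CPM in the articular zone, against 186 CPM in the mature zone, with an adjusted p of 0.668 in edgeR. The gene with the highest fitted value of this list, Spry4, an inhibitor of receptor tyrosine kinase signalling named after its values were seen, had 116, 0 and 33 counts in the articular zone, against 0 in both mature zone libraries, and its zones overlapped at 0.

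**Figure D4:**
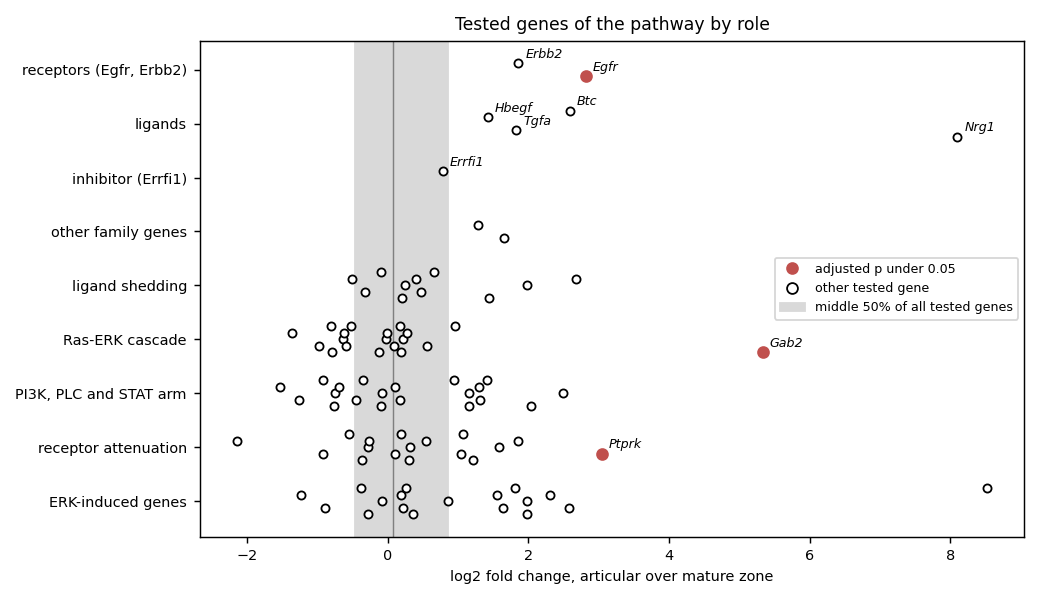
Fitted log2 fold change of articular over mature zone (horizontal axis) for each tested gene, in rows by role, with called genes filled and the middle 50% of all tested genes shaded. Egfr at 2.81, Gab2 at 5.33 and Ptprk at 3.04 are the filled points, and the Ras-ERK row centres near 0 at a median of -0.03. Nrg1 and the rightmost point of the bottom row, Spry4, had 0 counts in both mature zone libraries, so their positions are no measured size.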

How the data were processed

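Zones of CD-1 mouse condyles were captured by laser, and polyA-selected RNA was sequenced with single-end reads. The authors trimmed the reads with Trimmomatic 0.32, mapped them to mm10 with SHRiMP and deposited raw counts per gene. The program and strand setting of the counting were not given in the sources used here. FPKM values were also deposited by the authors, and in these the lowest value is 0.1. A deposited table of DESeq results by the authors (zone means, fold changes and p-values) was not used. Groups and replicate numbers came from the sample titles.

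Genes that reached 10 counts in 2 or more libraries were tested with edgeR 4.0.16 in R 4.3.3 (TMM, robust quasi-likelihood F test, Benjamini-Hochberg over 13119 genes, called at an adjusted p under 0.05). The spread rested on 3 residual degrees of freedom. FPKM were tested with limma 3.58.1 on log2(FPKM + 1), for genes with an FPKM of at least 1 in at least 2 libraries, as an alternative, and fold changes on that scale understate those of low genes. Other alternatives were DESeq2 1.42.0, other scaling factors, other filters, a pseudocount of 0.1, a replicate block and leaving out each library. The test was checked on simulated counts.

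Named genes were the 10 family genes, the called genes of each role list (up to 4) or else the 2 with the highest mean FPKM, the 5 genes nearest to Egfr in profile, and marker genes. Hras was matched under its older symbol Hras1. The family genes and the lists were chosen with earlier results of these data known. Marker lists of osteoblasts (322 to 920 CPM in the articular zone, 637 to 905 in the mature zone), skeletal muscle (13.2 to 933 and 59.6 to 807) and the superficial articular layer (4307 to 4999 and 2444 to 3417) were also summed. The superficial sum was mostly Tnc (4047, 4929 and 4091 CPM in the articular zone, against 3344 and 2444 in the mature zone). Prg4, Cilp and Thbs4 overlapped between the zones. Gene coordinates follow GENCODE vM21 on GRCm38.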

Additional observations from a re-analysis of the deposited data

How the results depend on the processing

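Egfr was higher in the articular zone under all 14 alternatives and was called in 13 of them, with log2 fold changes of 1.43 to 3.12. Erbb2 and Errfi1 had positive log2 fold changes under all 14 alternatives, from 0.99 to 2.43 and from 0.27 to 1.59. Tgfa turned to -0.77 without articular zone replicate 2, with an adjusted p of 0.954 in edgeR, and reached 8.15 without mature zone replicate 2. Of the family genes, 1 was called with edgeR, 3 with DESeq2 and 0 to 2 when a library was left out. Of the other pathway genes, 2 were called with edgeR, 10 with DESeq2, 0 with limma on log2(FPKM + 0.1), 4 with limma without a filter on low values and 0 to 8 when a library was left out, where the 8 were obtained without mature zone replicate 2. Over all genes, 393 were called with edgeR, 1802 with DESeq2, 593 without the filter on low counts, 766 with limma on unfiltered FPKM and 13 to 1289 when a library was left out. With the replicate number as a block, 226 genes were called, among them Egfr (log2 fold change 2.70, adjusted p 0.0169) and 1 other pathway gene, Eps8, which was lower, while Gab2 and Ptprk were not called, on 1 residual degree of freedom. Deviations from the zone means correlated at 0.145 between the libraries numbered 2 and 0.131 between those numbered 3. With 2 mature zone libraries, their deviations are exact opposites, so these 2 values are not separate and cannot show a pairing. The labels do not say whether libraries of the same number came from the same animals, so the numbers were not taken as a pairing. The number of genes tested also changed with the setting. With limma on log2(FPKM + 0.1), 0 of 69 other pathway genes were called, beside 360 of 10189 over all genes. With limma without the filter, 4 of 97 were called, beside 766 of 22462. The fit without mature zone replicate 2 tested 86 other pathway genes among 12826. It left a single mature zone library and gave the most calls over all genes of the fits without a library. Its pathway calls thus do not set the pathway apart. The causes of the shifts between settings were not tested. Counts under about 10, as in Nrg1 and Tgfa, and 2 libraries in the mature zone limit what can be seen.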
